A study of Mus musculus with 3 samples.

Results

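AP-1 and immediate early genes were followed on all 3 arrays of a study of NIH3T3 cells, a mouse embryonic fibroblast line. The 10 genes, chosen by name, were Fos, Fosb, Fosl1, Fosl2, Jun, Junb, Jund, Egr1, Ier2 and Atf3. Every probe set annotated with exactly 1 gene symbol, that of a member, was taken, which gave 14 probe sets among 45101 on the array, or among the 34945 that carried 1 gene symbol. The tested array was of cells carrying a short hairpin RNA against retinol saturase (Retsat), labelled as very resistant to t-BHP (tert-butyl hydroperoxide, an organic peroxide), and it is called RetSat shRNA here. The reference arrays, empty vector 1 and empty vector 2, held cells with the vector lacking a hairpin, grown in calf serum without treatment and labelled as basal expression. The labels used here leave unstated how the RetSat shRNA cells were grown or treated, how many clones lie behind each array, and whether each empty-vector array was a culture of its own. The titles of RetSat shRNA and empty vector 2 carry the same number, 2, and the labels used here do not say what it stands for, so a likeness of these arrays cannot be told apart from anything that number may mark.

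AP-1 is a dimer of leucine zipper proteins, in which a FOS protein needs a JUN partner to bind DNA and JUN proteins can also pair with one another. Several genes of the family, such as Fos, are immediate early genes. They are switched on within minutes by serum, growth factors or stress without new protein synthesis. Not all are of this kind, and Jund is usually present in resting cells. Fibroblasts such as NIH3T3 are a classic system for the early response. The mRNAs of immediate early genes are mostly short-lived, so that a level measured in growing cells reflects recent signalling. EGR1 is a zinc finger factor of the same early wave, IER2 is a nuclear protein of the wave, and ATF3 is a stress-induced leucine zipper factor that can pair with JUN proteins.

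Most members differed more between the empty-vector arrays than between RetSat shRNA and empty vector 2, with Egr1 and Ier2 as the exceptions on the deposited scale, joined by Fos after quantile normalization and by Fos and the dimmer Fosl1 probe set with centred arrays. The same held over the whole table. The median absolute log2 difference of all tested probe sets was 0.43 between the empty-vector arrays. Between RetSat shRNA and empty vector 2 it was 0.18. RetSat shRNA was the highest array for 7 of the 14 member probe sets and the lowest for 0, beside 30.8% and 29.2% of all tested probe sets. Empty vector 1 was the lowest for 10 and the highest for 2. Over all tested probe sets it was the lowest for 46.2% and the highest for 39.2%. The 10 included every probe set of the JUN family and of Fosl2. Fos, Egr1, Ier2 and the dimmer Fosl1 probe set were lowest on empty vector 2. The low place of empty vector 1 in the JUN family and Fosl2 was the same after quantile normalization. Centring the arrays on a common median could not have changed it, because empty vector 1 has the highest median and is lowered against both other arrays. Centring also moved the lowest place of Egr1 and Ier2 to empty vector 1. No member passed the test across probe sets.

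Promoter windows are shown for Jun and Junb, whose levels set empty vector 1 apart, and for Fos, whose levels did not. Sequences are from RefSeq for GRCm38.p6 and run from 250 bases before the annotated start to 50 bases from it onward. A window was used for 7 of the 10 members (Fos, Fosb, Fosl2, Jun, Junb, Jund and Atf3). The members' windows were not taken from every chromosome, so a missing window does not mean that the source held none. The Jun window lies at chr4:95052173-95052472 on the minus strand, the Junb window at chr8:84978699-84978998 on the minus strand and the Fos window at chr12:85473640-85473939 on the plus strand. Capitals mark TGACG, the half-site of the cAMP response element, and TGACATCA, the site through which JUN proteins are known to act on the Jun promoter.
Jun: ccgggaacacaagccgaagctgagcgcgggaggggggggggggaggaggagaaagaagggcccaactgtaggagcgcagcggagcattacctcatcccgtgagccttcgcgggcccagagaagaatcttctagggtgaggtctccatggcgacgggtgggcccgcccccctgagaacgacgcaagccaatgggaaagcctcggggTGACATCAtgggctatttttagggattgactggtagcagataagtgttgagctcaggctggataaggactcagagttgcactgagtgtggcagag
Junb: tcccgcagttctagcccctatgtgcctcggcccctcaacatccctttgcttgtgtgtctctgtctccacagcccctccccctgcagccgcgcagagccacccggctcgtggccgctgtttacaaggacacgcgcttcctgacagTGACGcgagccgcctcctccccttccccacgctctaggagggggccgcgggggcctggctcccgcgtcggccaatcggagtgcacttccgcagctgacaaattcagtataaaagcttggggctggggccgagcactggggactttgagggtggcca
Fos: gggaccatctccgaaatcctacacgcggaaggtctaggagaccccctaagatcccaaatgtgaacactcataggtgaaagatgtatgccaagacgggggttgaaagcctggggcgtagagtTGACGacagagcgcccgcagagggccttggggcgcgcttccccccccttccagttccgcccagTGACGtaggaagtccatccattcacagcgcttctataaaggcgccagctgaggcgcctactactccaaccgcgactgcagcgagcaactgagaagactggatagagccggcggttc

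On both strands, TGACG was found in the Fos window at 129 and 66 bases before the annotated start, in the Junb window at 106, in the Fosb window at 60 and in the Atf3 window at 7. It was in 20.8% of the 32851 promoter windows of the table, a share that includes the 1.79% with TGACGTCA, the full element that contains it. TGACATCA was found in the Jun window at 45 bases before the start and in 3.62% of all windows. The AP-1 site TGAGTCA, which is in 5.2% of all windows, and the CArG box bound by serum response factor, which is in 1.63%, were found in none of the 7. The promoters of Egr1, Fosl1 and Ier2 were not searched. These matches describe letters in a short window, and sites further out, such as the distal serum response element known in the Fos gene, lie outside it.

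Signals are deposited intensities on a linear scale, and they are compared between arrays for 1 probe set at a time, apart from sums over fixed lists of cell type markers. Differences are given as log2(signal + 10.2), where 10.2 is the 25th percentile of all deposited values, and they understate the change of dim probe sets. Testing was limited to probe sets whose mean log2 signal was at least that of the median probe set, which kept 19518 probe sets. Among them were 12 of the 14 member probe sets, from 9 of the 10 genes. Members counted out of 12 are these probe sets, so Fosl1, Fosl2 and Jun each enter with both of theirs. Fosb and the dimmer Jund probe set were not tested. The fit in limma has 1 residual degree of freedom, from the empty-vector arrays, and takes the lone RetSat shRNA array to vary as they do, so its p-values measure only the spread between those arrays, which may be technical. Every member tested had an adjusted p of 0.99993 in limma (Benjamini-Hochberg over all probe sets tested), so the differences below are given with their standard error (SE) from that fit and none passed it. An exact permutation test over 3 arrays has 3 arrangements and cannot give a p below 0.333.

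The label of the RetSat shRNA array held for its target. Retsat read 69.5 on RetSat shRNA against 415.9 on empty vector 1 and 495.9 on empty vector 2 with its brighter probe set, and 17.7 against 107.0 and 90.3 with the other. The log2 differences from the mean of the empty-vector arrays were -2.54 and -1.96, yet neither probe set passed limma. Not passing limma here therefore does not show that a gene is unchanged. All 8 fibroblast markers passed the filter on signal, and their summed signal was 71251.0 on RetSat shRNA, 72168.9 on empty vector 1 and 70266.5 on empty vector 2. That sum is carried by the brightest markers, and Pdgfra, at 1886.7 on RetSat shRNA against 4732.8 on empty vector 1 and 2172.5 on empty vector 2, and Pdgfrb, at 2455.4 against 1287.0 and 2548.0, both set empty vector 1 apart, in opposite directions. The summed signal of 5 epithelial markers was 202.0, 216.9 and 194.8 in that order, that of 4 immune markers 753.0, 724.2 and 627.6, that of 3 endothelial markers 89.9, 50.4 and 47.5, and that of 3 muscle markers 59.9, 51.5 and 59.8. Of these 15 markers of other cell types, 4 passed the filter on signal, and they were Epcam at 106.6 on RetSat shRNA against 53.8 on empty vector 1 and 121.8 on empty vector 2, Krt8 at 78.1 against 102.1 and 16.2, Cd68 at 119.7 against 142.0 and 132.8, and Cd14 at 614.7 against 569.4 and 479.9. The other 11 did not pass it, among them Cdh1, Ptprc, Cd3e, Pecam1, Myod1 and Myog, although no signal was exactly 0. The part of these markers in the results was not tested. In bulk RNA of this kind, fewer cells with a transcript and less of it per cell cannot be told apart. Empty vector 1 stood apart from the other arrays over the whole table. The SD of the log2 difference over tested probe sets was 0.806 between RetSat shRNA and empty vector 1, 0.383 between RetSat shRNA and empty vector 2, and 0.789 between the empty-vector arrays. The median log2 level of tested probe sets was 7.86 on RetSat shRNA, 8.02 on empty vector 1 and 7.89 on empty vector 2. Centring the arrays on these medians therefore adds to every difference of RetSat shRNA from empty vector 1, and values on that scale are given where it matters.

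The JUN family, the obligate partners of FOS proteins, read lowest on empty vector 1 with all 5 of its probe sets. Jund, the family member usually present in resting cells, read 1491.9 on RetSat shRNA against 554.5 on empty vector 1 and 1386.0 on empty vector 2 with its brighter probe set 1449117_at. RetSat shRNA and empty vector 2 thus lay close together, at a ratio of 1.08, and the empty-vector arrays lay 2.50-fold apart. The log2 difference of RetSat shRNA from the mean of the empty-vector arrays was 0.76 (SE 0.655). The dimmer Jund probe set 1440265_at read 27.9 on RetSat shRNA against 22.5 on empty vector 1 and 37.1 on empty vector 2. It shared the low place of empty vector 1, but here RetSat shRNA lay between the empty-vector arrays.

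Jun, the founding member of the family and a regulator of its own promoter, read 2372.3 on RetSat shRNA against 1443.0 on empty vector 1 and 2372.2 on empty vector 2 with probe set 1417409_at. RetSat shRNA and empty vector 2 differed by 0.1 units, while empty vector 1 lay at 0.608 of empty vector 2. The other Jun probe set, 1448694_at, read 750.2 on RetSat shRNA against 540.8 on empty vector 1 and 864.5 on empty vector 2, which placed RetSat shRNA between the empty-vector arrays. Both probe sets gave the same order of the empty-vector arrays, at log2 differences of empty vector 1 from empty vector 2 of -0.71 and -0.67. The differences of RetSat shRNA from the mean of the empty-vector arrays were 0.36 (SE 0.544) and 0.13 (SE 0.537).

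Junb, which often opposes Jun in growth control, read 743.8 on RetSat shRNA against 416.3 on empty vector 1 and 626.0 on empty vector 2. RetSat shRNA was thus above both empty-vector arrays, by 1.79-fold and 1.19-fold. The log2 difference from their mean was 0.53 (SE 0.526), and the gap between the empty-vector arrays was 0.58. The excess over the nearer empty-vector array, 0.25, was smaller than that gap.

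**Figure D1:**
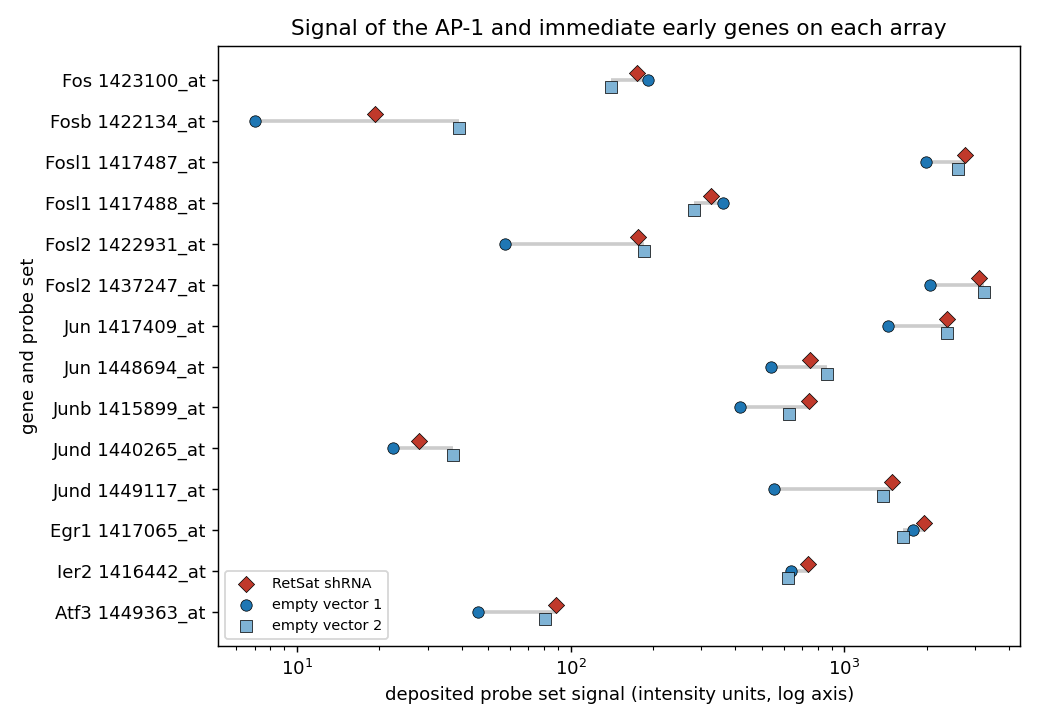
Deposited signal of each of the 14 probe sets (rows, gene and probe set) on a log axis in intensity units, with a diamond for RetSat shRNA, a circle for empty vector 1, a square for empty vector 2 and a grey line spanning the 3 arrays. The circle is leftmost in 10 of 14 rows, as for Jund 1449117_at at 554.5, while the diamond and the square lie close together in most rows.

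In the FOS family the members went different ways. Fosl2, a FOS-related protein that persists longer than FOS after stimulation, read 3100.9 on RetSat shRNA against 2046.8 on empty vector 1 and 3236.9 on empty vector 2 with probe set 1437247_at. Its other probe set, 1422931_at, read 176.8 on RetSat shRNA against 57.6 on empty vector 1 and 184.9 on empty vector 2. Both placed RetSat shRNA just under empty vector 2, at 95.8% and 95.6% of its signal, and far above empty vector 1, at ratios of 1.51 and 3.07. Set against the average of both empty-vector arrays, the log2 differences were 0.27 (SE 0.536) and 0.70 (SE 0.705).

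Fosl1, the FRA-1 protein induced in sustained growth and RAS signalling, read 2749.7 on RetSat shRNA against 1991.7 on empty vector 1 and 2599.4 on empty vector 2 with its brighter probe set 1417487_at. The dimmer probe set 1417488_at read 326.2 on RetSat shRNA against 360.9 on empty vector 1 and 281.5 on empty vector 2. The probe sets disagreed on the order of the empty-vector arrays, with empty vector 1 lower by 0.38 log2 in the first and higher by 0.35 in the second. RetSat shRNA exceeded empty vector 2 in both, by 0.08 and 0.21 log2. Set against the average of both empty-vector arrays, the differences were 0.27 (SE 0.506) and 0.03 (SE 0.503).

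Fos, the prototype immediate early gene of serum-stimulated fibroblasts, read 174.3 on RetSat shRNA against 192.0 on empty vector 1 and 139.9 on empty vector 2. RetSat shRNA lay between the empty-vector arrays, and its log2 difference from their mean was 0.08 (SE 0.510). The order of the empty-vector arrays was opposite to that of the JUN genes. After centring, RetSat shRNA came 0.03 log2 above empty vector 1, and after quantile normalization 0.09 above it, so its place between the empty-vector arrays depends on the scaling. Fosb, a close relative of Fos, was dim on every array, at 19.2 on RetSat shRNA against 7.0 on empty vector 1 and 39.0 on empty vector 2. It was not tested, and its empty-vector signals straddle the RetSat shRNA signal.

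Egr1 and Ier2 were the steadiest members between the empty-vector arrays. Egr1 read 1958.3 on RetSat shRNA against 1786.2 on empty vector 1 and 1633.7 on empty vector 2. Ier2 read 735.2 on RetSat shRNA against 638.2 on empty vector 1 and 623.4 on empty vector 2. For both genes RetSat shRNA was above both empty-vector arrays by more than those arrays differed from each other, except that after quantile normalization the Egr1 excess over empty vector 1 was 0.06 log2 beside a gap of 0.18. On the deposited scale the Egr1 excess over empty vector 1, 0.132 log2, was barely above the gap of 0.128. A small gap makes such an excess easier to reach, and how often other probe sets reached it was not counted. The Egr1 ratios were 1.10 to empty vector 1 and 1.199 to empty vector 2, with 1.09 between the empty-vector arrays. The Ier2 ratios were 1.15 and 1.18, with 1.02 between the empty-vector arrays. The log2 differences from the mean of the empty-vector arrays were 0.20 for Egr1 (SE 0.491) and 0.22 for Ier2 (SE 0.489). The SE is far wider than the gap between the empty-vector arrays for these genes because limma draws each gene's spread towards that of all probe sets.

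Atf3, which is raised by many stresses, read 88.1 on RetSat shRNA against 46.0 on empty vector 1 and 80.7 on empty vector 2. It followed the JUN pattern, with RetSat shRNA near empty vector 2 at a ratio of 1.09 and well above empty vector 1 at 1.92. The log2 difference from the mean of the empty-vector arrays was 0.46 (SE 0.541).

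**Figure D2:**
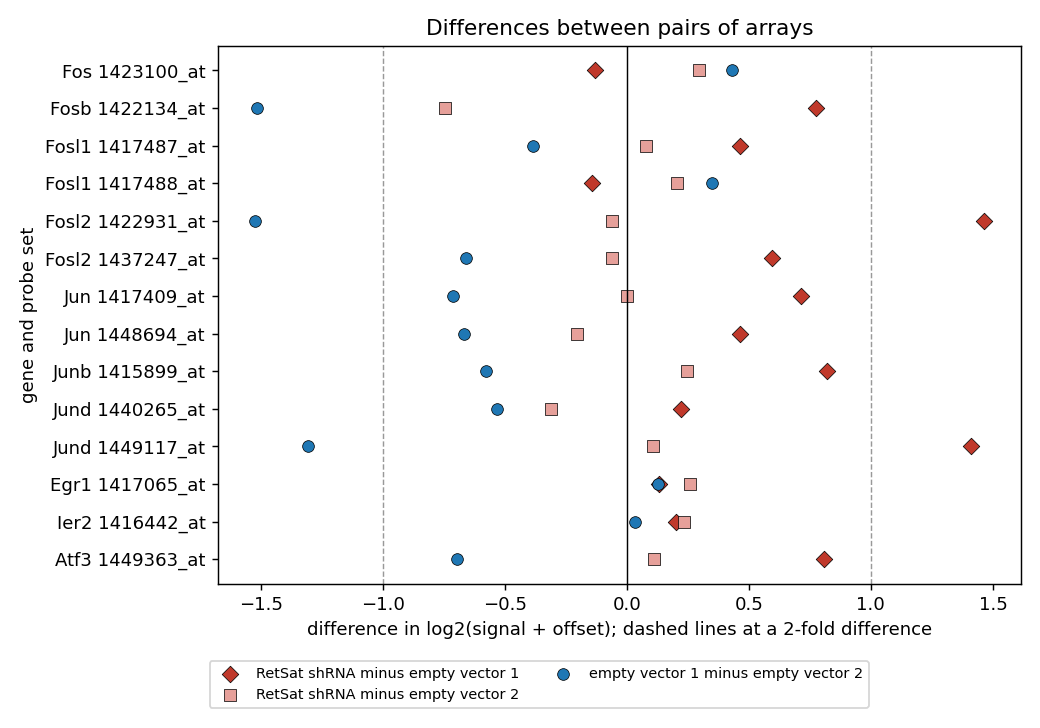
Differences in log2(signal + offset) between pairs of arrays (x axis) for each of the 14 probe sets (rows), with dashed lines at a 2-fold difference. Differences of RetSat shRNA from empty vector 2 (squares) lie between -0.74 and 0.30, while those of RetSat shRNA from empty vector 1 (diamonds) reach 1.46 for Fosl2 and 1.41 for Jund, opposite the empty-vector differences (circles). Each pair shares an array with each other pair.

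Over the 12 tested probe sets of the members, limma called 0, as it did for 0% of all 19518 probe sets (201 had an unadjusted p under 0.05, none of them a member). By size alone, 0 members stood at least 2-fold above both empty-vector arrays on RetSat shRNA, and 0 stood at least 2-fold below both. Of all tested probe sets, 0.149% stood that far above and 0.932% that far below, which are 29 and 182 probe sets. With centred arrays the numbers were 50 and 136, and after quantile normalization 60 and 141, again without a member. RetSat shRNA was above both empty-vector arrays for 7 of the 12 members, compared with 30.8% of all tested probe sets, and below both for 0 of 12, compared with 29.2%. With centred arrays, 9 of 12 members were above and 0 below, beside 7560 and 4439 of all tested probe sets, compared with 6016 and 5703 before centring. The 7 were Jund 1449117_at, Jun 1417409_at, Junb, Fosl1 1417487_at, Egr1, Ier2 and Atf3, and for Jun, where the signals differed by 0.1 units, quantile normalization placed RetSat shRNA 0.03 log2 below empty vector 2.

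The median log2 difference of the 12 members from the mean of the empty-vector arrays was 0.27, against 0.02 over all tested probe sets. Taken against each array, the members' median was 0.53 from empty vector 1 (all probe sets 0.05) and 0.11 from empty vector 2 (all probe sets -0.01). Most of the difference from the mean thus came from empty vector 1. Without empty vector 1, 9 members were higher and 3 lower on RetSat shRNA, at differences of -0.20 to 0.30, with 0 at least 2-fold apart. Of all tested probe sets, 48.6% were then higher and 51.3% lower, and 1.17% and 1.51% were at least 2-fold higher and lower. Without empty vector 2, 10 were higher and 2 lower, and Fosl2 1422931_at and Jund 1449117_at were at least 2-fold higher. The shares of all tested probe sets were then 52.9% higher and 47% lower, with 3.58% and 12.7% at least 2-fold higher and lower.

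Between the empty-vector arrays themselves the members' median absolute log2 difference was 0.62, compared with 0.43 over all tested probe sets. Between RetSat shRNA and empty vector 2 it was 0.16, compared with 0.18. Empty vector 1 was the lowest array for 8 of the 12 tested members and for 46.2% of all tested probe sets. It was the highest for 2 of the 12 and for 39.2% of all. Jund 1449117_at and Fosl2 1422931_at were at least 2-fold lower on it than on both other arrays, as were 1.96% of all tested probe sets. These genes were singled out after their values were seen. The part that the table-wide distance of empty vector 1 has in these differences was not tested.

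**Figure D3:**
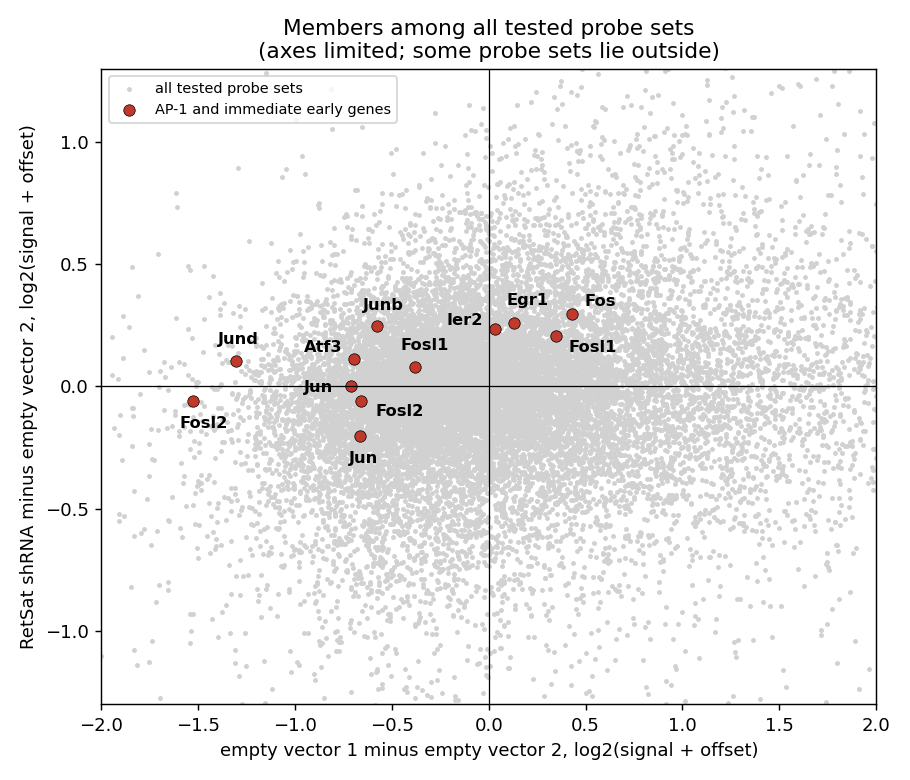
Each tested probe set by its log2 difference of empty vector 1 from empty vector 2 (x axis) and of RetSat shRNA from empty vector 2 (y axis), with all probe sets in grey and the 12 tested member probe sets in red. The members spread along the x axis from -1.52 (Fosl2) to 0.43 (Fos) and stay between -0.20 (Jun) and 0.30 (Fos) on the y axis. Both axes share empty vector 2.

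Other immediate early genes, from a list of 31 of which 29 were tested, were above both empty-vector arrays in 16 cases and below both in 4, compared with 34.4% and 25.4% of all 10843 tested genes, each represented by its brightest probe set. None of them, nor any gene of the lists that follow, passed limma or was at least 2-fold from both arrays, as were 0.0922% of all genes on the higher and 0.498% on the lower side. Their median log2 difference was 0.34 from empty vector 1 and 0.15 from empty vector 2, against 0.14 and 0 over all genes. Genes named from this list and those that follow were picked because RetSat shRNA lay on the same side of both empty-vector arrays. That place of RetSat shRNA is therefore not a result for them. Rhob, a small GTPase induced by growth factors and stress, read 2962.2 on RetSat shRNA against 1256.6 on empty vector 1 and 2339.7 on empty vector 2. Btg2, an antiproliferative p53 target, read 1076.1 on RetSat shRNA against 704.6 on empty vector 1 and 823.0 on empty vector 2. Rhob had the low empty vector 1 signal of the JUN genes, and Btg2 was above both arrays by more than they differed, as was its other probe set at 395.9 against 244.0 and 236.3. Plk3, a stress-responsive kinase, read 184.4 against 103.3 and 130.5 in the same order, and Nr4a3, an orphan nuclear receptor, read 90.3 against 58.9 and 65.7.

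Feedback inhibitors of MAP kinase and EGR signalling, of which 15 of 16 were tested, were above both empty-vector arrays in 8 cases and below both in 2. The shares of all tested genes were 34.4% above and 25.4% below. The medians of the list were 0.26 from empty vector 1 and 0.07 from empty vector 2, against 0.14 and 0 over all genes. Dusp6, the ERK phosphatase, read 1070.4 on RetSat shRNA against 940.3 on empty vector 1 and 869.1 on empty vector 2. Errfi1, an inhibitor of the EGF receptor, read 1593.1 on RetSat shRNA against 1283.5 and 1367.0, but its other probe set placed RetSat shRNA between the empty-vector arrays. Both resembled Egr1 in that the empty-vector arrays lay close together, while RetSat shRNA lay outside those arrays by the rule for naming genes. Dusp5, a nuclear ERK phosphatase, read 93.6 on RetSat shRNA against 67.8 and 21.7, and Spry1, an inhibitor of receptor tyrosine kinase signalling, read 99.3 against 38.9 and 74.4. Both of these were dim.

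Upstream kinases and factors had a probe set with 1 symbol for 17 of 22 genes, all tested. Of these, 5 were above both empty-vector arrays and 2 below, beside 34.4% and 25.4% of all tested genes. The medians of the list were 0.22 from empty vector 1 and 0.01 from empty vector 2, against 0.14 and 0 over all genes. Elk1, the ternary complex factor that drives Fos and Egr1 with serum response factor, read 152.3 on RetSat shRNA against 69.4 on empty vector 1 and 87.9 on empty vector 2, and its other probe set read 87.8 against 60.6 and 54.3. Elk1 ranked highest of this list by the rule for naming genes, so its place above both arrays is not a result. Its other probe set, which that rule did not use, lay in the same direction. Map2k1, the MEK1 kinase, read 1197.6 against 1027.2 and 1019.4, and Map2k2, the MEK2 kinase, read 1892.4 against 1184.2 and 1787.6, with its other probe set between the empty-vector arrays. Map2k4, a kinase of JNK, read 289.1 on RetSat shRNA against 447.1 and 322.6, below both.

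Other leucine zipper partners were tested for 6 of 10 genes, of which 3 were above both empty-vector arrays and 0 below. The shares of all tested genes were 34.4% above and 25.4% below. The medians of the list were 0.79 from empty vector 1 and 0.13 from empty vector 2, against 0.14 and 0 over all genes. These list medians were close to those of the AP-1 and immediate early genes, which were 0.60 and 0.11 when each gene was taken once. Mafg, a small MAF protein, read 775.9 on RetSat shRNA against 429.5 on empty vector 1 and 625.9 on empty vector 2, with the same order in its other probe set. Maf read 171.6 against 68.5 and 124.8, and Atf7 read 87.5 against 47.7 and 74.4. All 3 had empty vector 1 lowest, as for Junb, while RetSat shRNA lay outside both arrays by the rule for naming genes. Of the 6 tested, 1 was at least 2-fold higher on empty vector 1 than on empty vector 2, as were 1011 of all 10843 tested genes.

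Known AP-1 target genes were tested for 9 of 17, with 4 above both empty-vector arrays and 2 below, beside 34.4% and 25.4% of all tested genes. The median difference was 0.14 from empty vector 1, as over all genes. From empty vector 2 it was 0.07, against 0 over all genes. Plaur, the urokinase receptor, read 564.3 on RetSat shRNA against 311.7 on empty vector 1 and 449.6 on empty vector 2. Mmp9, a gelatinase, was dim at 87.6 against 36.0 and 59.5. Plaur and Mmp9 thus had empty vector 1 lowest, as for Junb, while RetSat shRNA lay outside both arrays by the rule for naming genes. Vegfa read 420.4 on RetSat shRNA against 372.7 and 322.1, and the hyaluronan receptor Cd44 read 4171.0 against 3787.0 and 3984.2. Other probe sets of Vegfa and Cd44 did not share these directions, with Vegfa at 112.7 against 190.7 and 80.6 and the dimmest of Cd44 at 511.5 against 971.1 and 519.6.

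**Figure D4:**
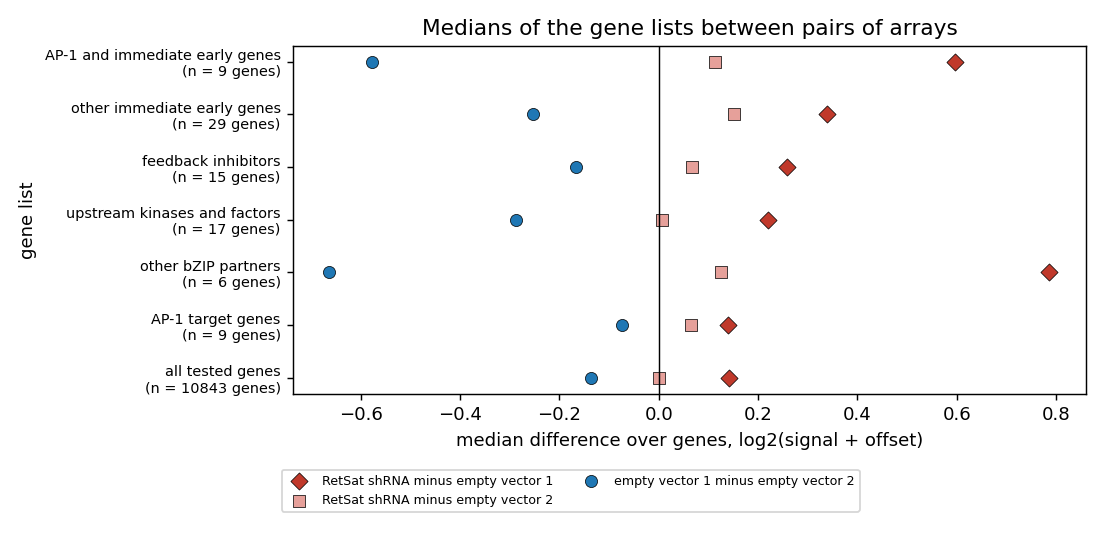
Median difference in log2(signal + offset) over the tested genes of each list (rows, with the number of genes) between pairs of arrays (x axis). The AP-1 and immediate early genes and the other leucine zipper partners lie farthest from 0 for empty vector 1 minus empty vector 2 (circles, -0.58 and -0.66), while every list lies between 0 and 0.16 for RetSat shRNA minus empty vector 2 (squares).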

How the data were processed

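Gene expression was measured in 3 samples of NIH3T3 cells, 2 with an empty vector and 1 with a RetSat shRNA, grouped by their titles. The authors deposited 1 linear-scale intensity for each probe set and array. The sources used here name neither the software nor the summarisation method. The deposited intensities have a trimmed mean (2% from each end) of 250.002 on each array, so they were scaled before deposit. The number of arrays limits the precision, and detection calls were not used.

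Symbols came from the platform annotation and were checked against GRCm38.p6 through the gene ID, which changed 0. Of the probe sets, 932 had several symbols, 9160 had none listed and 64 were array controls, and these were left out. No member had a probe set with several symbols. The fit used limma 3.58.1 (R 4.3.3) on log2(signal + 10.2) with lmFit and eBayes, two-sided, with Benjamini-Hochberg adjustment over the 19518 probe sets tested and a threshold of 0.05. The code was run on simulated data whose noise came from RetSat shRNA and empty vector 2, the closest pair. That run cannot tell how the fit performs with the wider spread between the empty-vector arrays. Alternatives covered the offset, the filter, scaling, the choice of probe sets, the variance prior and leaving out an array. The pathway genes named were up to 4 of each list, ranked by whichever of the 2 differences from an empty-vector array was smaller, where both had the same sign. Members and lists were chosen with earlier results of these data known. Promoter windows came from a RefSeq table.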

Additional observations from a re-analysis of the deposited data

How the results depend on the processing

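Under the 7 alternative offsets, filters, scalings and choices of probe sets, the 12 tested members kept the sign of their difference from the mean of the empty-vector arrays wherever they were in the fit. The exceptions were untested, dim probe sets, with Fosb at -0.042 with an offset of 50 (0.015 in the fit as reported) and Jund 1440265_at at 0.052 with centred arrays and 0.029 after quantile normalization (-0.046 as reported). The filters and the choice of probe sets leave each difference unchanged, and centring adds the same positive amount to all. For the 12 tested members, all positive, only the offsets and quantile normalization could thus have turned a sign. Leaving out empty vector 1 or 2 turned 7 probe sets, with ranges of -0.14 to 0.21 for Fosl1 1417488_at, -0.74 to 0.77 for Fosb, -0.061 to 1.46 and -0.062 to 0.60 for Fosl2 1422931_at and 1437247_at, -0.13 to 0.30 for Fos, -0.31 to 0.22 for Jund 1440265_at and -0.20 to 0.46 for Jun 1448694_at. Members above both arrays numbered 6 to 9, or 9 to 10 against a lone array, and members below numbered 0, or 2 to 3 against a lone array.

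Limma called 0 probe sets except with centred arrays, where it called 2, neither a member. Probe sets at least 2-fold higher than both arrays (29) became 54 and 5 with offsets of 1 and 50, 780 without a filter, 1 with the 75th percentile filter, 50 with centred arrays, 60 after quantile normalization, 10 with 1 probe set a gene, and 228 to 698 against a lone array. Those at least 2-fold lower (182) became 283 and 14 with these offsets, 950 without a filter, 2 with the stricter filter, 54 with 1 probe set a gene, and 295 to 2472 against a lone array. The filters and the lone arrays change these counts by construction, and for offset and scaling the cause was not tested. The list of upstream kinases and factors had a median of -0.039 with the stricter filter and 0.089 as reported. For the other leucine zipper partners the median ran from 0.13 to 0.79 when an array was left out, an alternative added after the data were seen. Fits without an empty-vector array have no residual degrees of freedom and gave no test. No paired analysis was possible because the groups share only 1 replicate number. Dim signals near the offset, as for Fosb, limit what can be compared.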
